A study of Mus musculus with 8 samples.

Results

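The genes described are 10 members of 2 Hox clusters, followed through the differentiation of R1 mouse embryonic stem cells (ESCs). They are Hoxc4, Hoxc5, Hoxc6, Hoxc8, Hoxc9 and Hoxc10 of the HoxC cluster and Hoxd1, Hoxd3, Hoxd4 and Hoxd8 of the HoxD cluster. They were taken by gene symbol, and all 10 were found among the 24421 genes of the count tables. Polyadenylated RNA was read by nanopore sequencing, with 2 kits of Oxford Nanopore Technologies (ONT). The Direct RNA kit (500 ng input) passes the native RNA strand through the pore, and the cDNA-PCR kit (50 ng input, called cDNA here) copies and amplifies the RNA first. Undiff libraries came from R1 cells without RA, which the study's methods describe as kept in growth medium with leukaemia inhibitory factor, while the sample labels name embryoid bodies as the tissue of every library. Day4 libraries came from embryoid bodies, that is floating cell aggregates, grown without that factor for 4 days and then given 2 µM retinoic acid (RA) for a further 4 days, where one label gives the unit as mM. All groups share the same unmodified line, no group received RA without embryoid body culture, and RA, withdrawal of the factor, aggregate culture and time in culture therefore cannot be told apart. Each kit and state had 2 replicates, giving 8 libraries. By the study's text RNA from the same duplicate cultures served both kits, so the 2 kits are not independent cultures.

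Hox genes encode homeodomain transcription factors that give cells of the embryo their position along the head-to-tail axis. They sit in clusters in which gene order follows the order of expression, with genes at the 3′ end switched on first and nearest the head. RA, acting through nuclear RA receptors that bind DNA as dimers, is a classical activator of Hox genes in ESCs, and 3′ genes are known as the readier responders.

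In the RefSeq annotation of GRCm38.p6 (the assembly that mm10 also names) the HoxC members spanned 70.1 kb of chromosome 15 (chr15:102966796-103036856) and the HoxD members 60.5 kb of chromosome 2 (chr2:74704615-74765142), all on the plus strand. From 5′ to 3′, HoxC ran from Hoxc10 at chr15:102966796-102971898 through Hoxc9 at chr15:102977032-102984444, Hoxc8 at chr15:102990539-102994275 and Hoxc6 at chr15:102998226-103011882 to Hoxc5 at chr15:103014008-103017429 and Hoxc4 at chr15:103018097-103036856. In HoxD, Hoxd8 lay at chr2:74704615-74707933, Hoxd3 at chr2:74711993-74748271, Hoxd4 at chr2:74721978-74729160 and Hoxd1 at chr2:74762980-74765142. By gene start Hoxd3 thus lay 5′ of Hoxd4, because its annotated span takes in the whole of Hoxd4, while its end lay nearer to Hoxd1.

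RefSeq promoter windows were at hand for 5 of the 10 members, and they were searched for AGGTCA, the half-site that RA receptors and other nuclear receptors bind. A letter match is a description of the sequence, not evidence of a bound site. On either strand, 4 of the 5 windows of 250 bases before the start held a match, beside 4607 of all 32851 promoters (14.0%). The windows are shown for the paralogues Hoxc4 and Hoxd4 and for Hoxd8 and Hoxd1, the HoxD members with the highest and the lowest level at Day4, with the match in capitals (TGACCT is AGGTCA read from the minus strand). The windows were chr15:103034145-103034394 for Hoxc4, where the start used is one inside the gene span, chr2:74721728-74721977 for Hoxd4, chr2:74704365-74704614 for Hoxd8 and chr2:74762730-74762979 for Hoxd1, all plus strand of GRCm38.p6.
Hoxc4: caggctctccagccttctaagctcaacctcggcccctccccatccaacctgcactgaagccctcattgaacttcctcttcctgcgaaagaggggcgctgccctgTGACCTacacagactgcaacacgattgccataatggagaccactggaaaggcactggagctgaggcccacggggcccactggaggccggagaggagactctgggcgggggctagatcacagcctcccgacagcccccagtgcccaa
Hoxd4: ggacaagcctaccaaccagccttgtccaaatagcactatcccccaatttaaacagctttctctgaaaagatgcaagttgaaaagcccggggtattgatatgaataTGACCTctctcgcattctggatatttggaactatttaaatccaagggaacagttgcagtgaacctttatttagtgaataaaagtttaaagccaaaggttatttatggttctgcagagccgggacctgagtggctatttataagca
Hoxd8: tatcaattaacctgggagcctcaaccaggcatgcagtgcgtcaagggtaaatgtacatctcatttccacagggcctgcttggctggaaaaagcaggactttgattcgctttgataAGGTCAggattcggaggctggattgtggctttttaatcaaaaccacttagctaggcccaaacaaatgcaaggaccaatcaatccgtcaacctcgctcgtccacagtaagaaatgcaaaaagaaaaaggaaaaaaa
Hoxd1: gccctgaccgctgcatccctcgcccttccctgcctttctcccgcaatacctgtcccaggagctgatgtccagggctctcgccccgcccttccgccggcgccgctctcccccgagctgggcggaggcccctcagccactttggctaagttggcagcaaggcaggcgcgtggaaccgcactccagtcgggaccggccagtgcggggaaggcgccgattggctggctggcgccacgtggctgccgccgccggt
The match began 146 bases before the start in Hoxc4, 145 in Hoxd4 and 135 in Hoxd8. Hoxd3 held one at 161 bases, on the minus strand. The Hoxd1 window held none, and it was also the richest in G and C (71.6%, with 24 CG pairs), whereas the Hoxd4 window had 40.4% G and C and 3 CG pairs.

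Libraries held 283461 to 907489 reads on genes in Direct RNA and 948657 to 2088592 in cDNA, and levels are given as CPM, reads scaled to a library total of 1000000 on genes. A count of 3 reads, the most that a true level could be expected to give when none is seen, corresponded to 1.44 to 10.6 CPM in one library. Pluripotency markers fell at Day4 in both kits in all 8 genes tested (background of genes called lower 7.67% in Direct RNA and 9.24% in cDNA), and their summed level went from between 5831 and 6042 CPM to between 56.4 and 153 CPM in Direct RNA. Of 8 markers each, 5 of endoderm, 2 of mesoderm and 4 of fibroblasts rose in Direct RNA and 3, 3 and 3 in cDNA (background of genes called higher 9.54 and 8.69%). No neural marker rose by DESeq2 (1 in each kit at an unadjusted p of 0.05), and Tubb3 fell in both kits. By edgeR 1 neural marker rose in each kit (background 18.6 and 17.1%). Only 2 neural markers in Direct RNA and 3 in cDNA had the mean count of 5 that a DESeq2 call needs, so the others could not be called. Summed levels of these lists at Day4 lay between 690 and 1002 CPM (Direct RNA) and between 278 and 288 CPM (cDNA) for endoderm, between 289 and 466 and between 59.9 and 156 CPM for mesoderm, and between 1220 and 2942 and between 227 and 235 CPM for fibroblasts, against at most 15.4 CPM in any Undiff library. The neural sum was 155 to 178 CPM in Direct RNA Undiff and 59.97 to 90.8 CPM at Day4, and 73.8 to 175 and 44.8 to 49.3 CPM in cDNA. Tubb3 made up most of the Undiff sum. Its mean went from 145 to 12.7 CPM in Direct RNA and from 116 to 25.5 CPM in cDNA. Nes went the other way, from 8.93 to 46.5 CPM in Direct RNA and from 1.72 to 13.4 CPM in cDNA. Map2 went from 7.83 to 3.12 CPM and from 3.40 to 1.38 CPM. The fall of the sum is therefore not a fall of the whole list. Tubb3 had the highest mean count of the neural list (40.4 in Direct RNA and 113 in cDNA), and Nes, not called by DESeq2, had 1.99 (adjusted p = 0.113) and 2.24 (adjusted p = 0.160) on the log2 scale. Dcx and Neurog2 had reads at Day4 only, and Olig2 had none in either state. The part of these cell types in the Hox results was not tested, and in bulk RNA more cells of a type and more RNA per cell cannot be told apart.

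The first comparison asked how the members changed from Undiff to Day4. All 10 members had at most 1 read in any Undiff library. At Day4 they had reads in every library, except Hoxc10 in replicate 2 of Direct RNA, and the HoxC members carried most of the Day4 reads. In Undiff, the 10 genes together had 0 and 1 reads with Direct RNA and 1 and 2 reads with cDNA. At Day4 they had 244 and 589 reads with Direct RNA and 593 and 878 with cDNA, or 829.7 ± 44.0 CPM (SD, n = 2) and 436 ± 19.2 CPM. The HoxC members went from 1 read over both Undiff libraries of Direct RNA to 744 reads, a pooled ratio of 915 (95% counting interval 164 to 36196), and in cDNA from 3 to 1215 reads, a ratio of 362 (124 to 1759). The HoxD members had no Undiff read. At Day4 they had 89 reads in Direct RNA and 256 in cDNA, which makes them at least 36.5-fold and at least 76.3-fold higher when Undiff is set to 3 reads over its 2 libraries. These intervals and bounds cover counting error only.

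**Figure D1:**
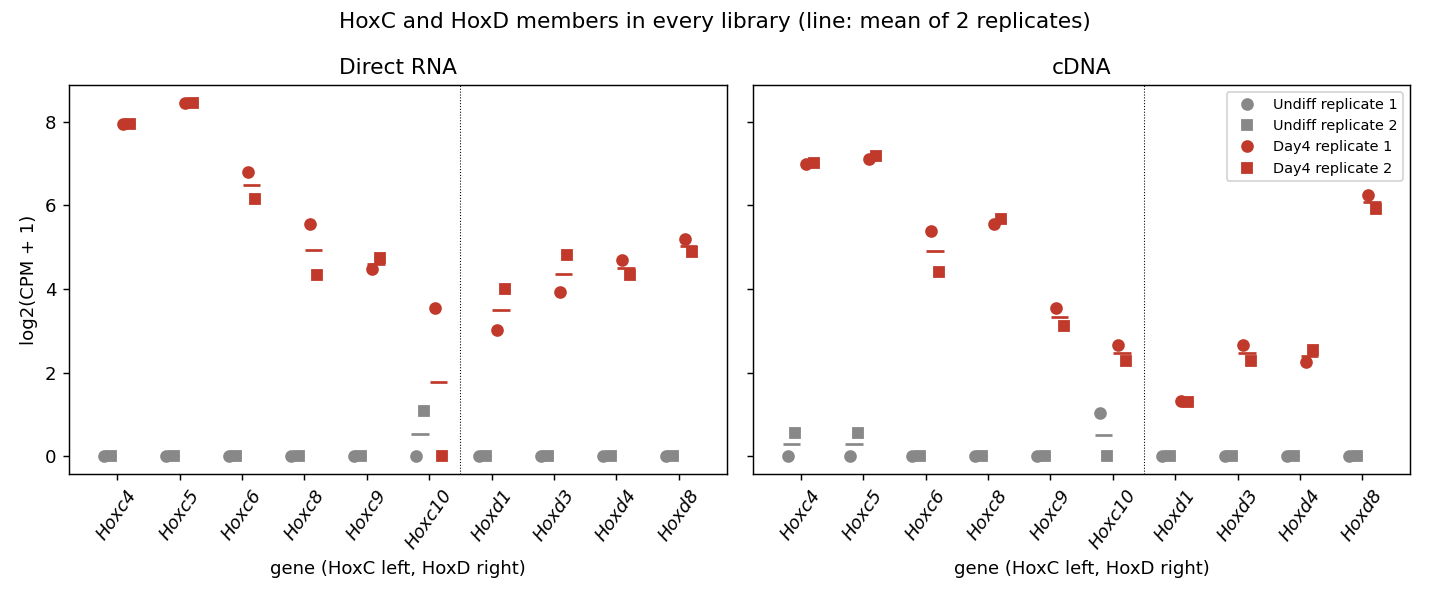
Level of each member in each of the 8 libraries on the log2(CPM + 1) scale, with Direct RNA left and cDNA right, Undiff in grey, Day4 in red, symbols for replicates and a short line for their mean. Undiff points lie at or near 0 for all 10 genes, and Hoxc10 in Direct RNA is the only member whose Day4 points reach down to the Undiff points.

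With DESeq2, a gene was called where the Benjamini-Hochberg adjusted p over all genes was at most 0.05, the shrunken log2 fold change at least 1 in size and the mean normalized count at least 5. In Direct RNA 7 of the 10 members were called higher (5 of 6 HoxC and 2 of 4 HoxD), against 9.54% of the 9646 genes tested, that is those at the minimum mean count. In cDNA 6 of 10 were called higher (5 of 6 HoxC and 1 of 4 HoxD), against 8.69% of 10271. The members are counted over all 10, those under the minimum included. No member was called lower. The median log2 fold change of the 10 members was 4.45 in Direct RNA and 5.03 in cDNA, beside 0.03 and 0.0019 over all genes tested. With hardly a read in Undiff, a member could reach the mean count of 5 only through Day4, and 7 members did so in Direct RNA and 6 in cDNA, the same genes that were called. By edgeR's quasi-likelihood test 8 members were called in Direct RNA (background 18.6%), with Hoxd3 added, and 6 in cDNA (17.1%). A block for replicate number was also fitted with DESeq2, though no source says that a number marks one culture. It left 4 members called in Direct RNA (Hoxc4, Hoxc5, Hoxc8 and Hoxd8), beside 455 of 9646 genes called higher. In cDNA it left 2 (Hoxc4 and Hoxc5), beside 597 of 10271.

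Each library was also left out in turn, which leaves 1 library in a group, so effect sizes are given. Over the 4 Direct RNA fits the log2 fold change was 6.18 to 7.33 for Hoxc4, 6.63 to 7.88 for Hoxc5 and 4.85 to 6.01 for Hoxc6. It was 2.83 to 4.41 for Hoxc8, 2.94 to 3.79 for Hoxc9, 2.83 to 3.66 for Hoxd4 and 3.44 to 4.26 for Hoxd8. In the 4 cDNA fits Hoxc9 had 2.55 to 3.87, the lowest of the members called in that kit. Fewer members were called in these fits, and fewer of all genes too. Fold changes stayed above 0 in these fits for every member in both kits except Hoxc10 in Direct RNA without Day4 replicate 1 (-0.30).

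Hoxc4 and Hoxc5, the 3′-most pair of HoxC and genes of cervical and upper thoracic identity, were the most abundant members. Hoxc4 had no read in Direct RNA Undiff and 243 and 245 CPM at Day4 (69 and 181 reads), and in cDNA 0 and 0.479 CPM in Undiff and 125 and 128 CPM at Day4. Hoxc5 had no read in Direct RNA Undiff and 349 and 348 CPM at Day4 (99 and 257 reads), and in cDNA 0 and 0.479 CPM and then 137 and 144 CPM. Within a kit the Day4 replicates of both genes stood close together and far from Undiff. For Hoxc4 the DESeq2 estimate on the log2 scale was 7.57 with Direct RNA (SE 1.06, adjusted p = 1.59e-10) and 7.07 with cDNA (SE 0.979, adjusted p = 7.31e-11). For Hoxc5 it was 8.04 with Direct RNA (SE 1.04, adjusted p = 2.88e-12) and 7.21 with cDNA (SE 0.972, adjusted p = 1.88e-11). Counted directly, Hoxc5 was at least 146-fold and Hoxc4 at least 103-fold higher in Direct RNA.

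Hoxc6, Hoxc8 and Hoxc9, genes of the thoracic region, were lower and spread more between replicates relative to their level. Hoxc6 had no Undiff read in any library, and at Day4 it had 109 and 70.5 CPM with Direct RNA and 41.0 and 20.2 CPM with cDNA (31, 52, 54 and 42 reads). Hoxc8, known for its part in the choice of motor neuron pools, also had no Undiff read, and 45.9 and 19.0 CPM in Direct RNA and 45.5 and 49.6 CPM in cDNA at Day4. Hoxc9, which sets thoracic motor neuron identity, had no Undiff read, and 21.2 and 25.8 CPM in Direct RNA and 10.6 and 7.70 CPM in cDNA. For each of the 3 genes every Day4 library was above every Undiff library, with replicate 1 the higher of the pair for Hoxc6 in both kits. On the log2 scale Hoxc6 rose by 6.19 with Direct RNA (SE 1.14, adjusted p = 2.92e-06) and by 5.91 with cDNA (SE 1.22, adjusted p = 4.62e-05). Hoxc8 rose by 4.66 with Direct RNA (SE 1.26, adjusted p = 0.00385) and by 6.52 with cDNA (SE 1.17, adjusted p = 1.58e-06). Hoxc9 rose by 4.23 with Direct RNA (SE 1.30, adjusted p = 0.0144) and by 4.16 with cDNA (SE 1.37, adjusted p = 0.0249).

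Hoxc10, the 5′-most member of HoxC and a gene of lumbar identity, was the single member whose groups overlapped. It had 0 and 1.10 CPM in Direct RNA Undiff and 10.6 and 0 CPM at Day4, or 0, 1, 3 and 0 reads. In cDNA it had 1.05 and 0 CPM in Undiff and 5.31 and 3.85 CPM at Day4 (1, 0, 7 and 8 reads), with both Day4 libraries above both Undiff libraries. Neither change passed the test, with DESeq2 estimates on the log2 scale of 1.27 for Direct RNA (SE 1.46, adjusted p = 0.784) and 2.1 for cDNA (SE 1.40, adjusted p = 0.448). The pooled cDNA ratio was 13.4, with a counting interval of 2.06 to 565.

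In HoxD, Hoxd8 was the member with most reads in cDNA. Hoxd8, a trunk gene, had no Undiff read in any library and 35.3 and 28.5 CPM at Day4 in Direct RNA (10 and 21 reads) against 74.3 and 59.2 CPM in cDNA (98 and 123 reads). It rose by 4.69 on the log2 scale with Direct RNA (SE 1.26, DESeq2 adjusted p = 0.00334) and by 6.97 with cDNA (SE 1.15, adjusted p = 1.04e-07). The Day4 libraries all stood above Undiff, and counted directly the gene was at least 12.7-fold higher in Direct RNA and at least 65.9-fold higher in cDNA.

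Hoxd1, Hoxd3 and Hoxd4 had no Undiff read and low counts at Day4. Hoxd4, which takes part in shaping the cervical vertebrae, had 24.7 and 19.0 CPM in Direct RNA (7 and 14 reads) and 3.79 and 4.81 CPM in cDNA (5 and 10 reads). Hoxd3, which acts with its paralogue Hoxa3 in the skeleton of the neck, had 14.1 and 27.1 CPM in Direct RNA (4 and 20 reads) and 5.31 and 3.85 CPM in cDNA (7 and 8 reads). Hoxd1, the 3′-most gene of its cluster and known in the mouse for its part in pain-sensing neurons, had 7.06 and 14.9 CPM in Direct RNA (2 and 11 reads) and 1.52 and 1.44 CPM in cDNA (2 and 3 reads). All 3 had reads in every Day4 library and in no Undiff library, yet by DESeq2 only Hoxd4 in Direct RNA was called, at 4.1 on the log2 scale (SE 1.31, adjusted p = 0.0205). Hoxd3 in Direct RNA had 4.03 (SE 1.32, adjusted p = 0.0254) but a mean count of 4.97, just under the minimum, where Hoxd4 had 5.24. The other changes missed the adjusted p in DESeq2, with 3.02 (SE 1.41, adjusted p = 0.175) for Hoxd1 in Direct RNA, and in cDNA 1.44 (adjusted p = 0.757) for Hoxd1, 3.08 (0.193) for Hoxd3 and 2.96 (0.225) for Hoxd4. By edgeR Hoxd3 in Direct RNA was called (adjusted p = 3.16e-05), and Hoxd1 in Direct RNA (0.00712) and Hoxd3 (0.0119) and Hoxd4 (0.0143) in cDNA passed the adjusted p but not the mean count.

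In GENCODE vM21 an exon of Hoxd3 overlaps one of Hoxd4 on the same strand and exons of the opposite-strand transcripts Haglr and Hoxd3os1, and an exon of Hoxc5 overlaps one of Hoxc10. Counting dropped reads that lay on more than 1 gene, and such reads made up 2.16 to 2.33% of gene and ambiguous reads in Direct RNA, counted by strand, and 7.65 to 8.45% in cDNA. These shares are over whole libraries. Counting used another annotation, not used here, and in the RefSeq spans given above Hoxc5 and Hoxc10 do not overlap. The share dropped at Hoxd3, Hoxd4, Hoxc5 and Hoxc10 themselves was not measured, so their counts are uncertain where the annotation used for counting has these overlaps. Haglr itself had 3 and 3 reads at Day4 with Direct RNA and 13 and 9 with cDNA, and Hoxd3os1 0 and 5, and 4 and 3.

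**Figure D2:**
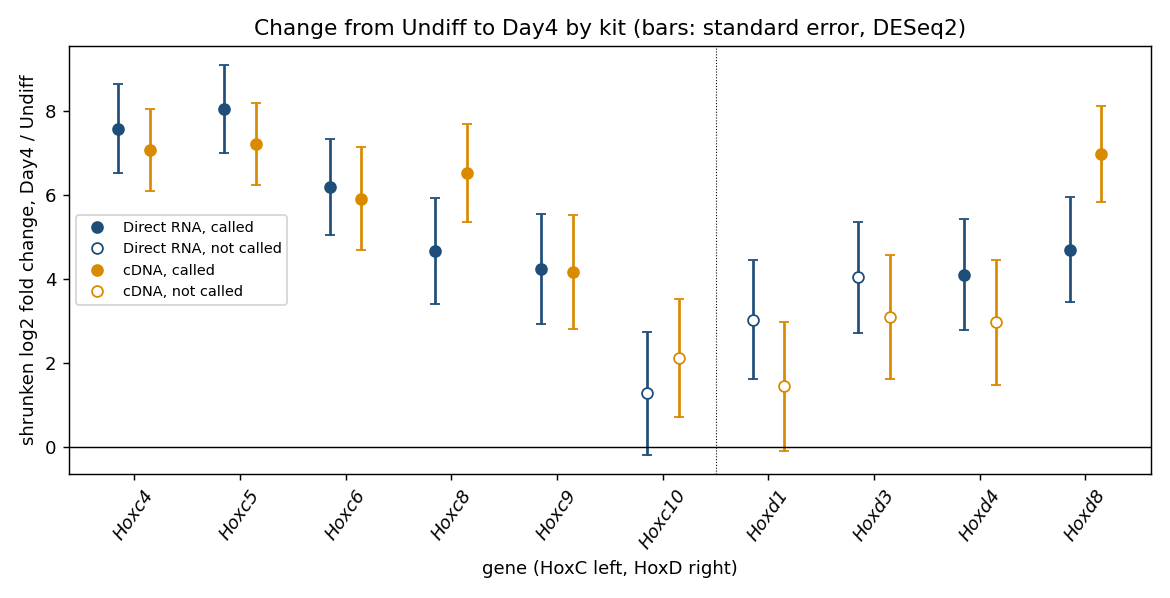
Shrunken log2 fold change of Day4 against Undiff for each member, Direct RNA in blue and cDNA in orange, with bars of 1 standard error from DESeq2 and filled points for called genes. The values lie above 0 for every member in both kits, are largest for Hoxc5 (8.04 in Direct RNA and 7.21 in cDNA) and smallest for Hoxc10 in Direct RNA (1.27) and Hoxd1 in cDNA (1.44).

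The members were then ordered by level at Day4 within each kit. To compare genes, levels were divided by the length of the longest annotated transcript, which ran from 1581 bases (Hoxc6) to 2968 bases (Hoxd3). For Hoxc8 that is a transcript annotated as a retained intron (2223 bases). In Direct RNA the order on CPM per kb was Hoxc5 (119 ± 0.197, SD, n = 2), Hoxc4 (115 ± 0.660), Hoxc6 (56.9 ± 17.4), Hoxc8 (14.6 ± 8.55), Hoxd8 (12.1 ± 1.83), Hoxc9 (9.88 ± 1.37), Hoxd4 (8.53 ± 1.58), Hoxd3 (6.95 ± 3.10), Hoxd1 (5.90 ± 2.98) and Hoxc10 (2.77 ± 3.92). The replicates of each of the first 3 genes stood apart from those of the next in the order, and from Hoxc8 down they overlapped. Apart means here only that the replicates did not overlap, which leaves counting error out. Hoxc5 (99 and 257 reads) and Hoxc4 (69 and 181 reads) lay close, and their difference was not tested. In cDNA the order on CPM per kb was Hoxc4 (59.6 ± 0.798), Hoxc5 (48.2 ± 1.72), Hoxd8 (25.4 ± 4.06), Hoxc8 (21.4 ± 1.29), Hoxc6 (19.3 ± 9.28), Hoxc9 (3.86 ± 0.869), Hoxc10 (2.40 ± 0.541), Hoxd4 (1.68 ± 0.282), Hoxd3 (1.54 ± 0.348) and Hoxd1 (0.795 ± 0.0278). There the neighbours that overlapped were Hoxc8 with Hoxc6 and Hoxd4 with Hoxd3. Without the division by length, Hoxc5 came before Hoxc4 in cDNA (141 ± 5.02 against 126 ± 1.69 CPM), Hoxd3 came before Hoxd4 there, Hoxc8 and Hoxc6 stood apart in cDNA, and Hoxd8 and Hoxc9 stood apart in Direct RNA.

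Set against position, the highest means lay in the 3′ pair of the HoxC members and in the 5′-most HoxD member. In HoxC the mean level per kb was highest in the 3′ pair in both kits. It was lowest in the 5′-most gene Hoxc10, 51.3 kb from the start of Hoxc4, at 2.77 and 2.40 CPM per kb. The steps between ran downwards except from Hoxc4 to Hoxc5 in Direct RNA and from Hoxc6 to Hoxc8 in cDNA. The first of these was small (115 to 119 CPM per kb) and was not tested against counting error, and in the second the replicates overlapped. In HoxD the 3′-most gene Hoxd1 had the lowest mean of the 4 members and the 5′-most, Hoxd8, 58.4 kb away, the highest in both kits. Hoxd8 stood apart from the other 3 in both kits, and Hoxd1, Hoxd3 and Hoxd4 overlapped each other in Direct RNA. With 6 and 4 genes no test of position was made. Beyond the members, Hoxd9, next on the 5′ side of Hoxd8, had 56.4 and 36.6 CPM at Day4 in Direct RNA and 19.7 and 12.5 CPM in cDNA, and it was called higher in both kits (log2 fold change 5.25, adjusted p = 0.000373, and 5.01, adjusted p = 0.00193). Further 5′, Hoxd10 had 1 read in each Direct RNA and 4 in each cDNA library of Day4, Hoxd11 had 2 and 0 reads and then 0 and 2, and Hoxd13 had 1 read in all. Hoxc11, Hoxc12 and Hoxd12 had no read in any library, and the 5 reads of Hoxc13 all came from Undiff libraries.

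**Figure D3:**
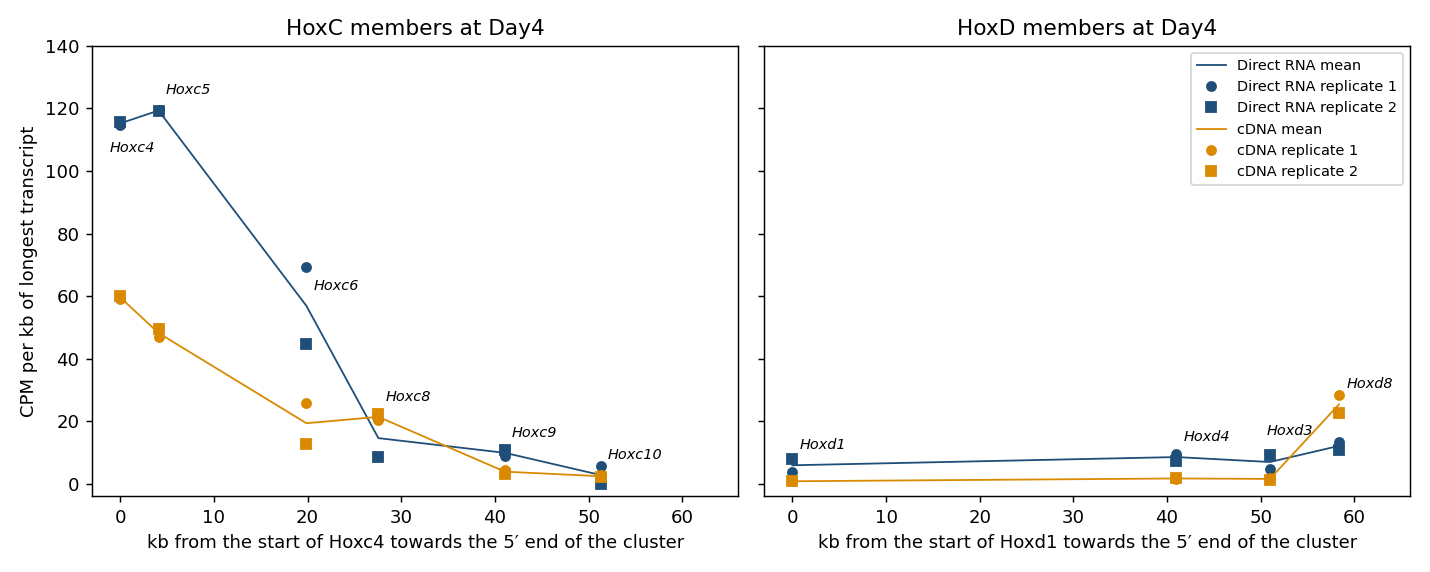
Day4 level in CPM per kb of the longest transcript against the distance in kb of each gene start from the start of the 3′-most member, HoxC left and HoxD right, with points for replicates and lines through the means of Direct RNA (blue) and cDNA (orange). HoxC falls from between 48.2 and 119 CPM per kb at Hoxc4 and Hoxc5 to under 3 at Hoxc10, while in HoxD Hoxd8 at the far end is the highest.

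Paralogues, the genes in the same position of different clusters, differed between HoxC and HoxD for group 4 and were close for group 8. Hoxd4 had 0.101 and 0.0773 times the reads of Hoxc4 in the Direct RNA libraries and 0.0303 and 0.0377 times in cDNA. For group 8, Hoxd8 and Hoxc8 overlapped in Direct RNA (12.1 ± 1.83 and 14.6 ± 8.55 CPM per kb), and in cDNA both Hoxd8 replicates (28.2 and 22.5 CPM per kb) were just above both Hoxc8 replicates (20.5 and 22.3).

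Shares of the member reads do not depend on how libraries are scaled against each other. HoxC took 90.6% (95% Wilson interval 86.3 to 93.6) and 88.8% (86.0 to 91.1) of the member reads in the Direct RNA Day4 libraries, and 81.1% (77.8 to 84.1) and 83.6% (81.0 to 85.9) in cDNA. Both Direct RNA shares were above both cDNA shares. The shares depend on which genes are members, and Hoxd9 is not among them. Over all genes of the 2 clusters, HoxC had 221 and 523 reads and HoxD 42 and 95 in Direct RNA. In cDNA HoxC had 481 and 734 reads and HoxD 142 and 176. The intervals cover counting error only, and amplified cDNA reads are not independent molecules. Within HoxD, Hoxd8 took 43.5% (25.6 to 63.2) and 31.8% (21.8 to 43.8) of the reads in Direct RNA but 87.5% (80.1 to 92.4) and 85.4% (78.7 to 90.3) in cDNA. Within the pair Hoxc4 and Hoxc5, Hoxc5 took 58.9% (51.4 to 66.1) and 58.7% (54.0 to 63.2) in Direct RNA and 52.3% (47.1 to 57.5) and 53.1% (49.0 to 57.2) in cDNA. With 2 libraries against 2 an exact two-sided permutation test cannot go below p = 0.33, so no test was made.

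**Figure D4:**
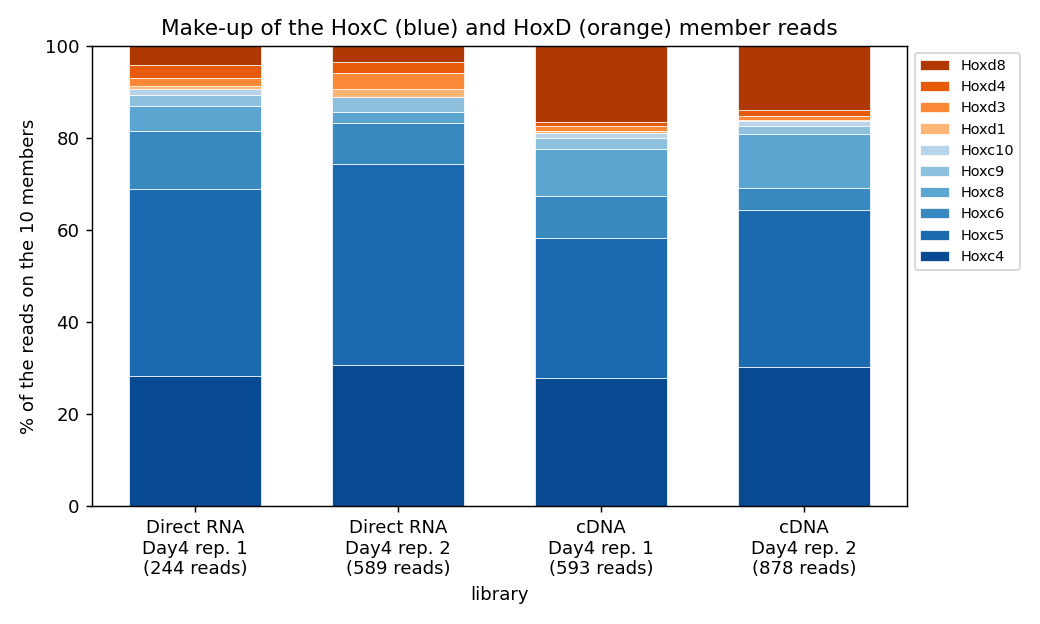
Reads of each member as a percentage of all reads on the 10 members in the 4 Day4 libraries, stacked, with HoxC in blue and HoxD in orange and the total number of reads under each bar. Hoxc4 and Hoxc5 make up 68.9 and 74.4% of the Direct RNA bars and 58.3 and 64.4% of the cDNA bars, and the top segment, Hoxd8, is taller in both cDNA bars.

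The kits were next compared directly at Day4. They differ in RNA input, amplification and base-calling, and Direct RNA reads were counted by strand, which cannot be told apart here. Hoxd8 was the single member called by DESeq2, higher in cDNA by 1.77 on the log2 scale (SE 0.564, adjusted p = 0.0111, 95% interval 0.67 to 2.88), in a comparison where 18.2% of all genes were called higher and 13.8% lower. Hoxc8 lay in the same direction at 1.33 (interval 0.15 to 2.52, adjusted p = 0.107). The other members missed the threshold, with Hoxc4 at -0.18 (interval -0.99 to 0.63), Hoxc5 at -0.53 (-1.31 to 0.25), Hoxc6 at -0.68 (-1.82 to 0.47), Hoxc9 at -0.54 (-2.09 to 1.01), Hoxc10 at 0.60 (-1.65 to 2.86), Hoxd1 at -1.65 (-3.79 to 0.48), Hoxd3 at -1.26 (-2.99 to 0.48) and Hoxd4 at -1.35 (-3.06 to 0.36). These intervals leave room for differences of 2-fold or more in at least one direction for 8 of these 9 genes. Hoxd8 was no longer called when any one of the 4 Day4 libraries was left out (1.40 to 1.96).

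These kit differences moved with the scaling and the test. Scaling by reads on genes in place of size factors shifted the median of all genes from 0.07 to -0.65, and then Hoxc5 (-1.28) and Hoxc6 (-1.48) were called lower (background 26.0% lower and 8.14% higher), while Hoxd8 at 1.04 was not called (adjusted p = 0.205). All 10 members kept their sign under both scalings, Hoxc10 at 0.01 under the second. By edgeR 4 members were called (background 25.3% higher and 23.4% lower), Hoxc8 (1.47, adjusted p = 0.00655) and Hoxd8 (1.85, adjusted p = 0.000277) higher in cDNA and Hoxd1 (-2.25, adjusted p = 0.0487) and Hoxd3 (-1.57, adjusted p = 0.0428) lower. In Undiff no member reached a mean count of 5 and 0 were called by DESeq2 or by edgeR (0 at an unadjusted p of 0.05), beside 17.5% of genes higher and 12.0% lower.

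**Figure D5:**
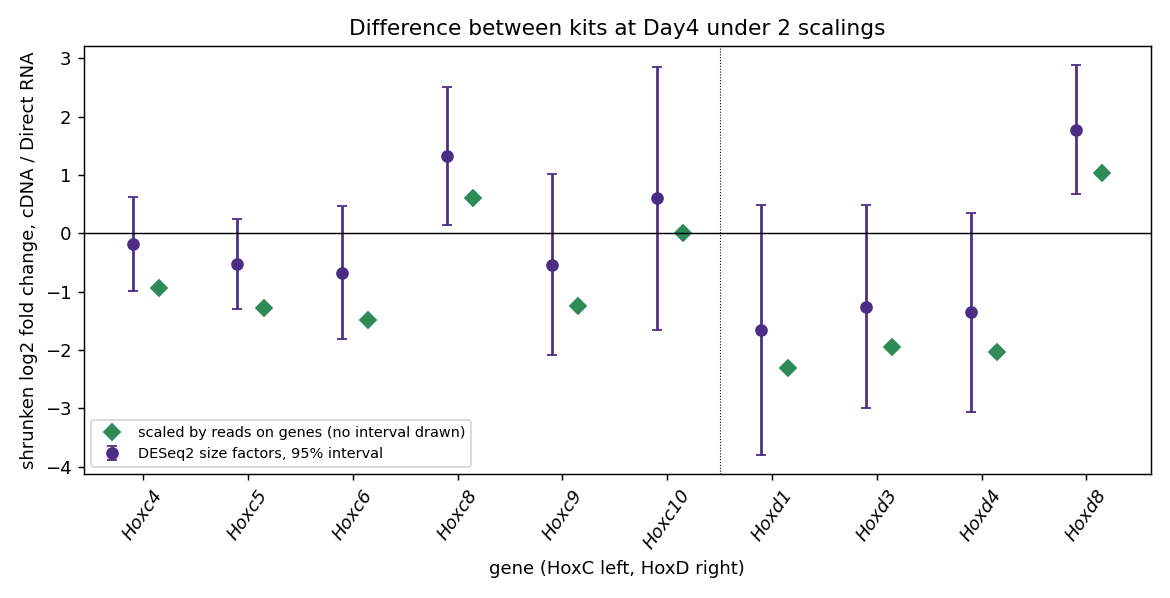
Shrunken log2 fold change of cDNA against Direct RNA at Day4 for each member, with circles and 95% intervals under DESeq2 size factors and diamonds for scaling by reads on genes. The diamonds lie below the circles for all 10 genes, and under both scalings Hoxd8 and Hoxc8 are the highest members.

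Whether the change between states itself differed between kits was tested by the interaction over all 8 libraries. With 0 or 1 Undiff read for nearly every member in both kits, this test had almost no measured Undiff level to compare. No member was called by DESeq2 (0 at an unadjusted p of 0.05, background 0.0116%) or by edgeR (background 0.0811%). The estimates were 2.19 (95% interval -2.25 to 6.63) for Hoxd8, 1.71 (-2.84 to 6.26) for Hoxc8, -1.22 (-5.20 to 2.76) for Hoxc4 and -1.58 (-5.54 to 2.38) for Hoxc5 on the log2 scale, so differences of several-fold in either direction were not detectable with these libraries. The widest interval was that of Hoxd1 (-8.68 to 5.00).

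The other Hox clusters and the RA pathway were read beside the members. In HoxA 5 of 11 genes passed as higher with Direct RNA and 6 with cDNA, and in HoxB 6 and 8 of 10, beside 9.54 and 8.69% of all genes tested. Among their most abundant genes, by the mean over all libraries, were Hoxa5 and Hoxa4 and Hoxb5, Hoxb2 and Hoxb4. Of all reads on Hox genes at Day4, HoxC took 36.5 and 25.6% with Direct RNA and 30.7 and 28.5% with cDNA, and HoxD took 6.94 and 4.66% and 9.06 and 6.83%, the smallest share of the 4 clusters in every library. The share of HoxC in Direct RNA was the larger in replicate 1, where the HoxA genes together had 681 CPM and the HoxB genes 526 CPM, against 1072 and 854 CPM in replicate 2.

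Of 18 genes for RA receptors, carriers and enzymes, 11 passed as higher with Direct RNA and 8 with cDNA (background 9.54 and 8.69%, as for the cofactors next), among them Dhrs3, an enzyme of retinoid metabolism, and Crabp2, which carries RA in the cell. Of 9 genes for the Hox cofactors of the Meis, Pbx and Pknox families, 5 were called in each kit, with Pbx2 and Meis1 among the most abundant. The Cdx genes, regulators of trunk Hox genes, stayed under a mean count of 5, with 0 to 17.6 CPM in all, and none of the 3 (Cdx2, Cdx1 and Cdx4) was called by DESeq2 or edgeR, and at an unadjusted p of 0.05 DESeq2 had 0 in both kits and edgeR 1 in Direct RNA and 0 in cDNA. Of 8 symbols for noncoding loci in the clusters, 6 were in the tables and none was called by DESeq2, with 0 in Direct RNA and 1 in cDNA at an unadjusted p of 0.05 and the same counts called by edgeR. None of these loci reached a mean count of 5 in DESeq2, so none could be called there. For them and for the Cdx genes the background called higher was 9.54 and 8.69% by DESeq2 and 18.6 and 17.1% by edgeR. Hotair had 1 read in all, and the microRNA loci had none in these polyadenylated libraries.

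The genes that flank the clusters were also read. Of the 5 nearest protein-coding genes on each side of each cluster, 19 of 20 were in the tables. By DESeq2 none was called in Direct RNA (3 higher at an unadjusted p of 0.05) and 1 in cDNA, Smug1 (2.59, adjusted p = 0.00479), against 2 in each kit by edgeR, beside 9.54 and 8.69% of all genes called higher by DESeq2 and 18.6 and 17.1% by edgeR. A difference from that background was not tested. Over the flanking genes with a mean count of at least 5, the median DESeq2 log2 fold change was -0.07 with Direct RNA (14 genes) and 0.24 with cDNA (15 genes). Evx2, 8.75 kb from the 5′ end of the HoxD cluster, had no read in 3 of the 4 groups. The most abundant, Atp5g3, Cbx5 and Copz1, were not called in either kit.

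The genes most like the summed members over the 8 libraries, by Pearson's r of log2(CPM + 1) among 10621 genes, were Ip6k2 (0.996), Lhfp (0.996), Hoxa2 (0.996), 1010001N08Rik (0.995) and Cyp26a1 (0.995). With a pseudocount of 5 in place of 1 their ranks were 1, 10, 2, 5 and 7. Cyp26a1, the RA-degrading enzyme, had 0 CPM in both Direct RNA Undiff libraries, 123 and 94.9 CPM at Day4, 0 and 0.479 CPM in cDNA Undiff and 48.6 and 61.1 CPM at Day4. The 8 points share 4 groups, so these coefficients describe the contrast of states and carry no p.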

How the data were processed

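The authors deposited unnormalized read counts, 1 per gene symbol, made with HTSeq from minimap2 alignments to mm10 and an iGenomes annotation, without secondary alignments. The strand was used in counting Direct RNA reads. Each table lists 24421 genes and 5 counters of unassigned reads (38.1 to 61.7% of all entries), which were left out. Groups and replicate numbers came from the labels. By the study's methods the 2 replicates were separate cultures and their RNA served both kits, but no source says that a number marks 1 culture across states or kits. The fits between kits without the replicate block treat libraries of shared cultures as independent.

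Counts were fitted over all genes with a read with DESeq2 1.42.0 in R 4.3.3 (Wald test, shrunken fold changes, Cook's cutoff and independent filtering off, as in the study's methods). Calls required adjusted p ≤ 0.05, a 2-fold change on the log2 scale (1 or more, either sign) and normalized counts averaging 5 or more, while the interaction used no shrinkage and the adjusted p alone. Alternatives were edgeR 4.0.16 with TMM factors, no shrinkage, filtering and Cook's cutoff on, TMM factors in DESeq2, a filter of 10 reads in 2 libraries, a replicate block and leaving out each library. The fits were run on simulated counts, with changes placed only in genes well covered in the libraries fitted. That check does not cover members with hardly an Undiff read. Shares carry Wilson intervals and read ratios exact intervals, both at 95%. All 10 members were named, and from each list the 3 genes with the highest mean CPM, except some that are not reported here. The 5 genes most like the members were named too. Dcx, Neurog2, Olig2, Evx2, Smug1, Hoxc11, Hoxc12, Hoxc13, Hoxd12 and Hoxd13 fall outside that rule and were named after their values were seen. The members and lists were chosen with earlier results of these data known. Coordinates and promoters come from RefSeq GRCm38.p6 and transcript lengths from GENCODE vM21. Replicate pairs were checked for a library deposited in duplicate, and none agreed within sampling noise (chi-square per degree of freedom 2.68 to 14.9).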

Additional observations from a re-analysis of the deposited data

How the results depend on the processing

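Under the settings other than the replicate blocks and the left-out libraries, the Direct RNA count of 7 members called higher at Day4 and the cDNA count of 6 stayed within 1.5 times. The replicate numbers are shared between groups, but no source says that they mark one culture, and with 2 pairs the deviations of same-numbered libraries correlated at 0.21 between the Direct RNA states, 0.50 between the cDNA states, 0.12 between the kits in Undiff and -0.42 between the kits at Day4 (1395 genes). With a replicate block, 4 members were called for Direct RNA (Hoxc4, Hoxc5, Hoxc8 and Hoxd8) and 2 for cDNA (Hoxc4 and Hoxc5). Beside them 455 of 9646 genes were called higher in Direct RNA and 597 of 10271 in cDNA, against 920 and 893 without the block. Hoxc6 then had 1.65 on the log2 scale in Direct RNA (DESeq2 adjusted p = 0.838), and in cDNA Hoxc6 had 1.73 (0.740), Hoxc8 1.74 (0.733) and Hoxd8 1.75 (0.729). Without shrinkage the same block gave 7.97 (SE 4.00) for Hoxc6 in Direct RNA and 7.46, 8.20 and 8.67 (each SE 4.00) for these genes in cDNA. With the block and no shrinkage, added after seeing the data, 2 were called in each kit, Hoxc4 and Hoxc5, and 0 between the kits at Day4. Of all genes, 438 of 9646 were then called higher in Direct RNA, 585 of 10271 in cDNA and 2373 of 10381 either way between kits. With crossed numbers at Day4, also added, 1 member was called between kits, beside 3006 of 10381 genes. Leaving out 1 library gave 3 to 3 calls in Direct RNA, 5 to 5 in cDNA and 0 to 0 between kits at Day4, where edgeR gave 4 and scaling by reads on genes, added after seeing the data, gave 2. Some values near 0 changed sign. Hoxc10 in Direct RNA ranged from -0.30 to 1.57 over the left-out libraries, its kit difference at Day4 from -0.23 to 2.06 and in Undiff from -0.34 to 0.31. The interaction ranged from -1.21 to 0.27 for Hoxc6, from -0.99 to 0.41 for Hoxc9 and from -0.77 to 4.86 for Hoxc10. In Undiff the kit difference of Hoxc10 was -0.29 by edgeR, -0.17 with reads on genes and -0.47 with the block without shrinkage, and with reads on genes those of Hoxc4 and Hoxc5 were both -0.0054. The cause of these changes was not tested. Where a group of 1 library remained, it was assumed to vary like the other group. Depth limits most the members with at most 20 reads in every Day4 library, Hoxc9, Hoxc10, Hoxd1, Hoxd3 and Hoxd4.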
